A study of Mus musculus with 10 samples.

Results

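Osteoclasts are multinucleated cells of the monocyte lineage that dissolve bone and the roots of teeth, and 10 genes of their formation and work were followed in mouse incisor pulp tissue labelled as dental mesenchyme. The set was the ligand gene Tnfsf11, the decoy receptor gene Tnfrsf11b, the receptor gene Tnfrsf11a, the transcription factor gene Nfatc1, the costimulatory receptor gene Oscar, the fusion genes Dcstamp and Ocstamp, the proton pump gene Atp6v0d2, and the enzyme genes Acp5 and Ctsk. A gene was taken up where a probe set of the array named exactly that symbol, and the brightest such probe set, by its mean over the 10 arrays, stood for the gene. All 10 genes were found, by 19 of 45037 probe sets, among 18193 genes measured. The values came from total RNA of 10 wild-type C57BL/6J incisors at postnatal day 60. In 5 mice the inferior alveolar nerve, which carries sensation from the lower teeth, had been cut out on 1 side 2 weeks before. The 5 incisors of that side are called denervated and the 5 of the intact side contralateral. There was no sham operation, so the missing nerve and the surgery itself cannot be told apart. Sex was not determined.

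In bone, osteoblasts, osteocytes and lymphocytes carry or release RANKL, the protein of Tnfsf11, which binds RANK, the protein of Tnfrsf11a, on monocyte precursors. Osteoprotegerin, the protein of Tnfrsf11b, is a soluble decoy that takes RANKL away from RANK. RANK signalling switches on NFATc1, which drives fusion genes, a proton pump and the acid hydrolases that resorb mineralized matrix. Around teeth, this system is known for opening the bony path of eruption and for root resorption.

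Values are log2 intensities. The median of an array was 1.48 to 1.54, and correlations between arrays lay between 0.982 and 0.997 over the 18193 genes, which are not independent replicates. There were no detection calls, so a value near the low end cannot be told from background; 40.7% of all genes had a mean below 2. Odontoblast markers were well measured, 8 of 8 with a mean of at least 4, and skeletal muscle markers had 0 of 10 at that level. Dental epithelium markers also had 11 of 11 at that level, although the label names mesenchyme. Arrays of equal number were paired, since their deviations from the group means correlated in all 5 pairs (between 0.18 and 0.57, against -0.41 to 0.22 for unequal numbers). The labels do not state that an equal number marks 1 mouse.

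Ctsk and Acp5, the enzymes of the resorbing cell, and Nfatc1 had a mean of at least 4, and Tnfrsf11b had a mean between 2 and 4. Acp5 passed 4 only narrowly, with a mean of 4.06 over the 10 arrays and 3.75 in the contralateral incisors. The ligand, its receptor, Oscar, both fusion genes and Atp6v0d2 lay near the low end, so that 6 of the 10 genes had a mean below 2. None of the 10 passed limma's test between denervated and contralateral incisors after Benjamini-Hochberg adjustment over all 18193 genes, with adjusted p values from 0.804 to 0.948. The share of all genes that passed was 0%, without and with the replicate number as a block. At an unadjusted p under 0.05 the count was 0 of 10 as well, where 6.21% of all genes lay. With the block it was again 0 of 10, where 9.92% of all genes lay, 6.99% higher and 2.93% lower. The mean was higher in the denervated incisors for 6 genes and lower for 4, with a median difference of 0.09 on the log2 scale, against 0.02 and a share of 55.8% higher over all genes. With quantile normalization 7 were higher and 3 lower, and with array medians subtracted 5 and 5. With that subtraction their median difference was -0.0052, against -0.08 over all genes. No gene of the set differed in the same direction in all 5 pairs, where 10.4% of all genes did (6.58% higher and 3.8% lower). None had groups that did not overlap, where 0.951% of all genes did (0.528% higher and 0.423% lower). Differences are given in log2 units as denervated minus contralateral, with limma's standard error.

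**Figure D1:**
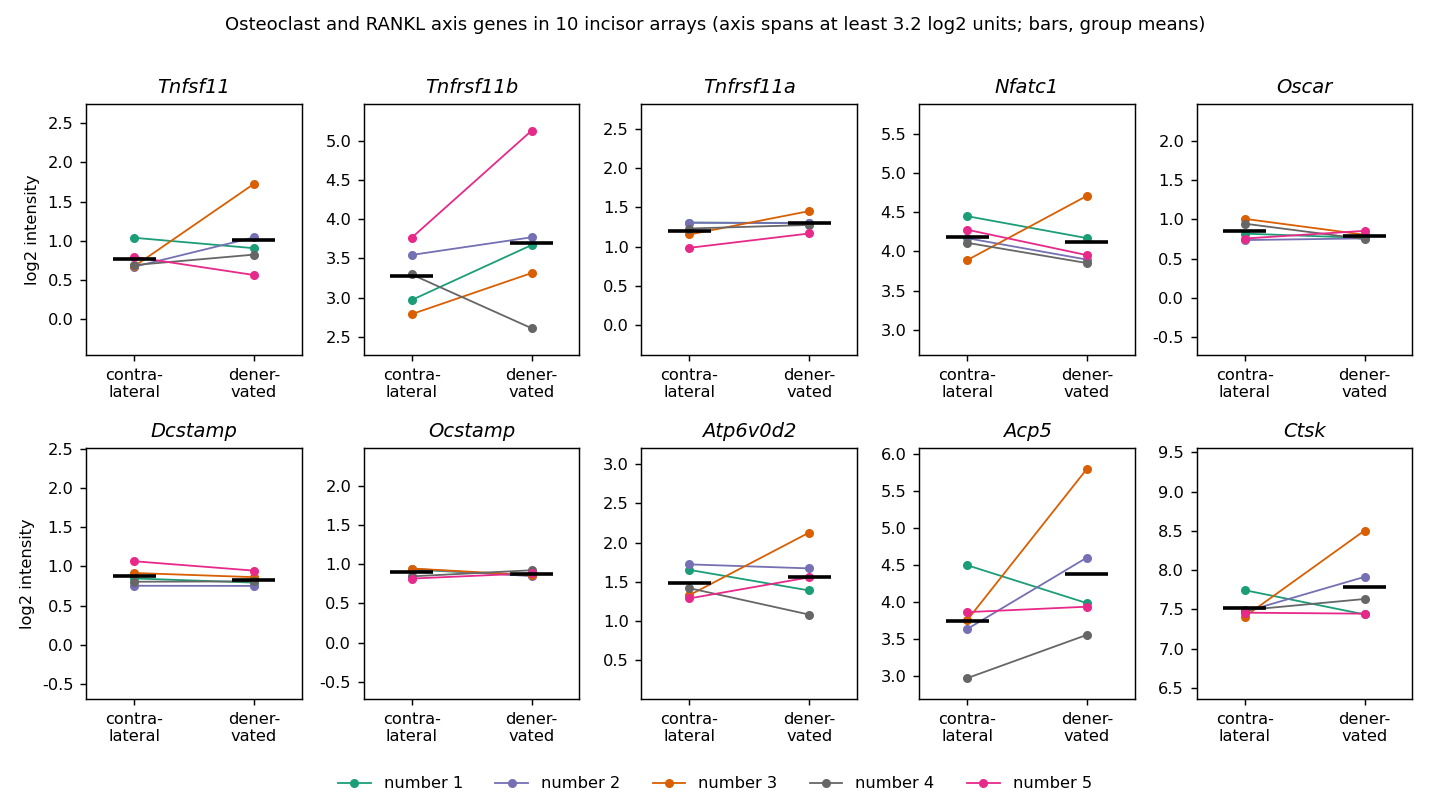
Log2 intensity of the 10 genes in the contralateral and denervated incisors (5 arrays each, lines join arrays of equal number, black bars are group means). Dcstamp, Ocstamp and Oscar stay between 0.74 and 1.06 in all arrays, and denervated array 3 is the highest point for Acp5 at 5.79 and Ctsk at 8.50.

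The ligand gene Tnfsf11 was at the low end of the scale in nearly every incisor. Its log2 values were 0.91, 1.04, 1.72, 0.82 and 0.56 in denervated arrays 1 to 5 and 1.04, 0.67, 0.67, 0.69 and 0.79 in contralateral arrays 1 to 5. In 9 of the 10 arrays it lay below the lowest array median, the exception being denervated array 3, and the groups overlapped. The difference was 0.24 ± 0.18 (SE), with a 95% confidence interval of -0.16 to 0.64 and an adjusted p of 0.822, higher in 3 of 5 pairs. Without denervated array 3 the difference was 0.06. The other probe set of Tnfsf11 had the opposite sign, -0.04.

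The decoy receptor gene Tnfrsf11b was measurable and varied between incisors. Its log2 values were 3.67, 3.77, 3.31, 2.61 and 5.13 in the denervated and 2.97, 3.54, 2.79, 3.29 and 3.76 in the contralateral incisors. Denervated array 5 was the highest and denervated array 4 the lowest of all 10, and the contralateral values lay between these. The means were 3.70 ± 0.92 and 3.27 ± 0.40 (SD, n = 5). The difference was 0.43 ± 0.38 (SE; 95% confidence interval -0.42 to 1.27, adjusted p 0.837), higher in 4 of 5 pairs. With the replicate number as a block the interval was -0.15 to 1.00. Without denervated array 5 the difference was 0.07. The other probe set of Tnfrsf11b lay at a mean of 0.93, near the low end.

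Tnfsf11 minus Tnfrsf11b was taken within each array. Since Tnfsf11 lay near the low end in 9 of 10 arrays, this value cannot show whether ligand and decoy changed unequally, and it is given as a description. This log2 value was -2.76, -2.73, -1.59, -1.79 and -4.56 in the denervated and -1.93, -2.87, -2.12, -2.60 and -2.97 in the contralateral incisors. The denervated values spread on both sides of the contralateral ones. The group means differed by -0.19, and an exact two-sided permutation test over all arrangements of the arrays gave p = 0.817, the smallest possible being 0.00794. In the pairs the value was higher in 3 and lower in 2, and exact sign flips of the 5 within-pair differences gave p = 0.688, where the smallest possible was 0.0625, so that test could not pass 0.05. Without denervated array 5 the sign turned to 0.28.

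The receptor gene Tnfrsf11a, whose protein receives the RANKL signal on precursor cells, lay below the lowest array median in 10 of 10 arrays, between 0.98 and 1.45. Its difference was 0.10 ± 0.08, higher in 3 of 5 pairs. It was 0.050 without contralateral array 5 and 0.065 without denervated array 3. Its other probe set, at a mean of 0.75, differed by -0.00097.

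Nfatc1, the master transcription factor of the osteoclast, had pairs that split. Its log2 values were 4.17, 3.90, 4.71, 3.85 and 3.95 in the denervated and 4.45, 4.17, 3.89, 4.11 and 4.28 in the contralateral incisors. Denervated array 3 was the highest of all 10, while the other 4 denervated arrays lay below their partners. The within-pair differences were -0.28, -0.27, 0.82, -0.26 and -0.32 in pairs 1 to 5. The mean difference was -0.06 ± 0.16 (95% confidence interval -0.42 to 0.30, adjusted p 0.946), lower in 4 of 5 pairs. Without both arrays of number 3 and with the replicate number as a block it was -0.28, with an unadjusted p of 0.00578 and an adjusted p of 0.590 by limma; this alternative was chosen after the values were seen. Among the 5 Nfatc1 probe sets, the next in level had a mean of 2.64 and within-pair differences of -0.03, -0.56, 0.88, -0.41 and 0.04, and the other 3 had means below 2.

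Oscar encodes a collagen receptor that costimulates osteoclast formation, and Dcstamp and Ocstamp encode membrane proteins needed for precursors to fuse. All 3 stayed below the lowest array median in 10 of 10 arrays. Oscar ranged from 0.74 to 1.01, Dcstamp from 0.75 to 1.06 and Ocstamp from 0.82 to 0.94, and the differences were -0.07 ± 0.07, -0.04 ± 0.07 and -0.02 ± 0.06; that of Ocstamp was 0.0023 with quantile normalization. The SD over the 10 arrays was 0.091 for Oscar, 0.098 for Dcstamp and 0.047 for Ocstamp. The other probe set of Oscar, at a mean of 0.56, differed by -0.011. Without contralateral array 3 the difference was -0.028 for Oscar and -0.0095 for Ocstamp, and without contralateral array 5 that of Ocstamp was -0.042.

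Atp6v0d2 encodes a subunit of the proton pump with which osteoclasts acidify the resorption pit, and it also acts in fusion. Its log2 values were 1.39, 1.67, 2.13, 1.08 and 1.56 in the denervated and 1.65, 1.72, 1.33, 1.42 and 1.29 in the contralateral incisors. The highest and the lowest value were both in denervated arrays, 3 and 4. The difference was 0.08 ± 0.17, higher in 2 of 5 pairs, and -0.06 without denervated array 3, so its direction rested on that array. It was also -0.015 when each array's median was subtracted. The other probe set of Atp6v0d2, at a mean of 1.11, differed by 0.037, higher in 3 of 5 pairs. Of the 6 genes of the set with several probe sets, 3 had all of them in the same direction and 3 did not.

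Acp5, which encodes tartrate-resistant acid phosphatase, the stain by which osteoclasts are known and also an enzyme of some macrophages, was measured in all 10 arrays with values from 2.98 to 5.79. Its log2 values were 3.99, 4.60, 5.79, 3.56 and 3.94 in the denervated and 4.50, 3.64, 3.76, 2.98 and 3.87 in the contralateral incisors. Denervated array 3 stood highest and contralateral array 4 lowest, and the groups overlapped. The means were 4.38 ± 0.88 and 3.75 ± 0.54 (SD, n = 5). The difference was 0.63 ± 0.39 (SE; 95% confidence interval -0.24 to 1.50, adjusted p 0.804), higher in 4 of 5 pairs, and with the replicate number as a block the adjusted p was 0.541. The within-pair differences were -0.51, 0.96, 2.04, 0.58 and 0.07. Without denervated array 3 the difference was 0.27, and without denervated arrays 2 and 3 it was 0.08.

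Ctsk encodes cathepsin K, the collagen-degrading protease of osteoclasts that some fibroblasts also make. Its log2 values were 7.44, 7.91, 8.50, 7.63 and 7.45 in the denervated and 7.75, 7.47, 7.41, 7.49 and 7.46 in the contralateral incisors. The contralateral values were close together apart from array 1, and denervated arrays 2 and 3 lay above all of them. The means were 7.79 ± 0.45 and 7.51 ± 0.13 (SD, n = 5). The difference was 0.27 ± 0.18 (95% confidence interval -0.13 to 0.68, adjusted p 0.814), higher in 3 of 5 pairs. Without denervated array 3 it was 0.09, and without denervated arrays 2 and 3 it was -0.01.

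**Figure D2:**
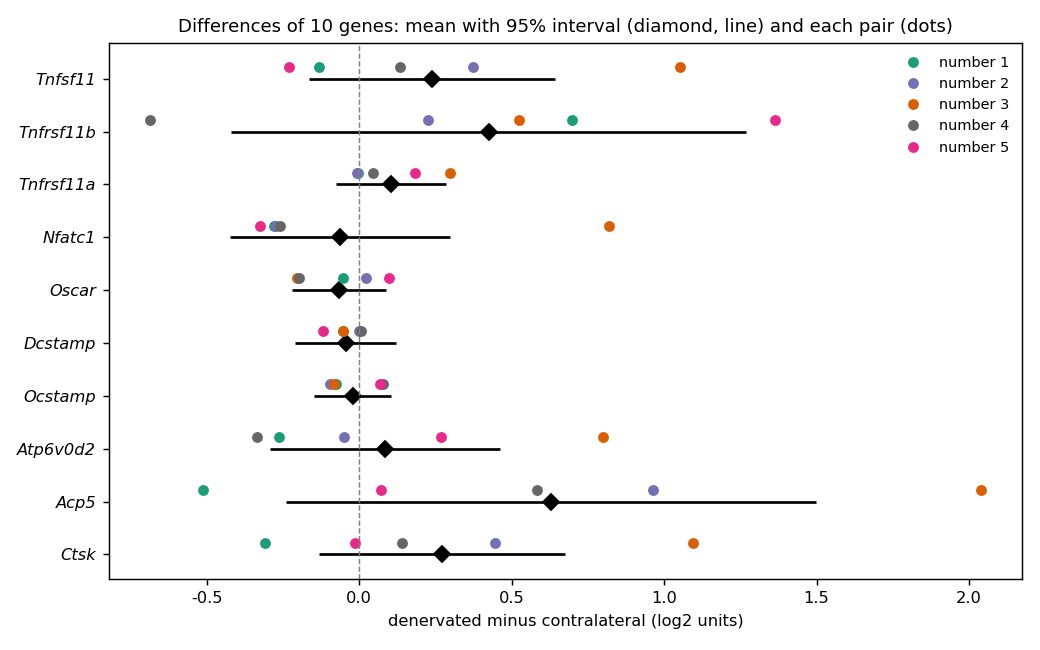
Denervated minus contralateral difference of each gene in log2 units (diamond, mean; line, limma's 95% confidence interval; dots, the 5 pairs). Every interval includes 0, and pair 3 is the rightmost dot for Tnfsf11, Tnfrsf11a, Nfatc1, Atp6v0d2, Acp5 and Ctsk.

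The starts of Acp5 and Ctsk are shown because these osteoclast enzyme genes had a mean of at least 4. Acp5 did so only narrowly, and its contralateral mean was 3.75. A further reason is that both genes were highest in the same incisor. The 250 bases before each RefSeq start (build GRCm38.p6) were read 5′ to 3′ along the gene's strand; which of the 3 Acp5 starts the probe set reports is not known. Capitals mark GGAAA, the core that NFAT factors bind, and GAGGAA, a core bound by the myeloid factor PU.1, each on either strand, and the motifs can overlap.
Ctsk, chr3:95498960-95499209, plus strand: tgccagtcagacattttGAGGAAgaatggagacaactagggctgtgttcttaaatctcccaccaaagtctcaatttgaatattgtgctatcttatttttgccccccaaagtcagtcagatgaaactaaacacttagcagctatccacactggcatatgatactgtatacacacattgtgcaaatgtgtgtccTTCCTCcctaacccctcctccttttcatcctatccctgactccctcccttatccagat
Acp5 start 1, chr9:22135747-22135996, minus strand: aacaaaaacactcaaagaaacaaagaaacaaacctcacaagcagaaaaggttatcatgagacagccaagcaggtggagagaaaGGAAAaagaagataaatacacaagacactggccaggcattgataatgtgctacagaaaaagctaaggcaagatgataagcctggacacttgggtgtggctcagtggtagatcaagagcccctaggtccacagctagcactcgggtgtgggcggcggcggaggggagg
Acp5 start 2, chr9:22131866-22132115, minus strand: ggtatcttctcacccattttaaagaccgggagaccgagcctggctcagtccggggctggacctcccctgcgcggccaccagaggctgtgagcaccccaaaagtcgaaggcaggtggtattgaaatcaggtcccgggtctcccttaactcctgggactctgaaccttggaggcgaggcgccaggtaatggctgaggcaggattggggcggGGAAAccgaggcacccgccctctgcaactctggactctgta
Acp5 start 3, chr9:22130599-22130848, minus strand: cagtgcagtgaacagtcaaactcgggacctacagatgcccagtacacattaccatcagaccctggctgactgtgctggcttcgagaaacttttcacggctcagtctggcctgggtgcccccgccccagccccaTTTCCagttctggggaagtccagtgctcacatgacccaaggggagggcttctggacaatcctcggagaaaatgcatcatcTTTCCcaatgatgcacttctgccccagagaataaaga
GGAAA was in each of the 3 Acp5 windows and not in the Ctsk window, and GAGGAA was in the Ctsk window at 2 places and in none of the Acp5 windows. The windows read were 7, for 5 of the 10 genes, the others being those of Tnfsf11, Tnfrsf11a and Oscar. Nfatc1 was left out by a filter on chromosome, and the remaining genes of the set had no window. The shares over all windows were taken without that filter. GGAAA was in 5 of the 7 windows, against 55.6% of all 32851 windows of the same length, and GAGGAA in 2 of 7, against 23.3%. TGANTCA, the site of AP-1 factors such as FOS, was in 0 of 7, against 6.75%, and CANGTG, an E-box that includes the sites of MITF, in 5 of 7, against 39.5%. Of the 7 windows 3 belong to Acp5, and each of these 3 held GGAAA and an E-box, so the windows are not independent. A match is a description of the letters and not a binding site.

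Denervated array 3 was the highest of the 10 arrays for 6 of the 10 genes, namely Tnfsf11, Tnfrsf11a, Nfatc1, Atp6v0d2, Acp5 and Ctsk. Over all genes this array was the highest for 15.7%, and for 18.8% of those with a mean of at least 4. The same 6 genes had their most positive within-pair difference in pair 3, where 28.6% of all genes did. Among them Tnfsf11, Tnfrsf11a and Atp6v0d2 had a mean below 2. Their other probe sets were highest in denervated array 1, contralateral array 5 and contralateral array 1. None of the other Nfatc1 probe sets was highest in denervated array 3, where the next in level was at 2.98, against 3.00 in denervated array 5. Acp5 and Ctsk had 1 probe set each. In pair 3 the median within-pair difference of the 10 genes was 0.66, against 0.07 over all genes. In pair 1 the direction was the other way, with 9 of 10 genes lower in the denervated incisor and a median of -0.10, against 46.1% of all genes higher and a median of -0.02. Pairs 2, 4 and 5 had 5, 6 and 6 of the 10 genes higher, with medians of 0.01, 0.03 and 0.07.

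Markers of other cells moved in the same arrays. The level of a marker list is the mean log2 value over its measured genes. The macrophage and monocyte list (17 of 18 genes measured, 10 with a mean of at least 4, Csf1r among them) lay between 4.47 and 4.61 in the contralateral arrays and between 4.63 and 5.24 in the denervated arrays, with arrays 3 (5.24) and 2 (5.22) the highest. Its level was higher in all 5 pairs, by 0.13, 0.60, 0.71, 0.14 and 0.26 in pairs 1 to 5. Of its 17 genes 11 were higher in all 5 pairs, against 6.58% of all genes, and 0 passed the adjusted test. Without denervated arrays 2 and 3 its median difference was 0.22, against -0.0028 over all genes. The neutrophil list (8 of 10 measured, 1 with a mean of at least 4 and 5 below 2) was at 3.65 in denervated array 3 and between 1.53 and 2.57 in the 9 other arrays. Of its 8 measured genes 7 were highest in denervated array 3, where 15.7% of all genes were. There S100a8, a calprotectin subunit gene, was at 6.89 and Elane, also at its highest but near the low end, at 1.19. Cxcr2, at 0.89, was not at its highest. The dental epithelium list was at 7.26 in denervated array 3 and between 9.42 and 9.82 elsewhere. The pericyte and smooth muscle list was at 6.51 in denervated array 2 and 6.13 in denervated array 3, and at most 5.65 elsewhere, and the endothelial list was at 5.36 and 5.23 in these arrays and at most 4.94 elsewhere. The odontoblast list was lowest, at 7.71, in denervated array 2. The osteoblast list (6 of 10 measured) lay between 6.65 and 6.93 in the contralateral and between 6.75 and 7.06 in the denervated arrays, and the lymphocyte list, whose cells can carry RANKL, had 9 of 9 measured genes with a mean below 2. The part of these cell types in the values of Acp5, Ctsk and the other genes was not tested. In bulk tissue, fewer cells of a type and less RNA per cell cannot be told apart.

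**Figure D3:**
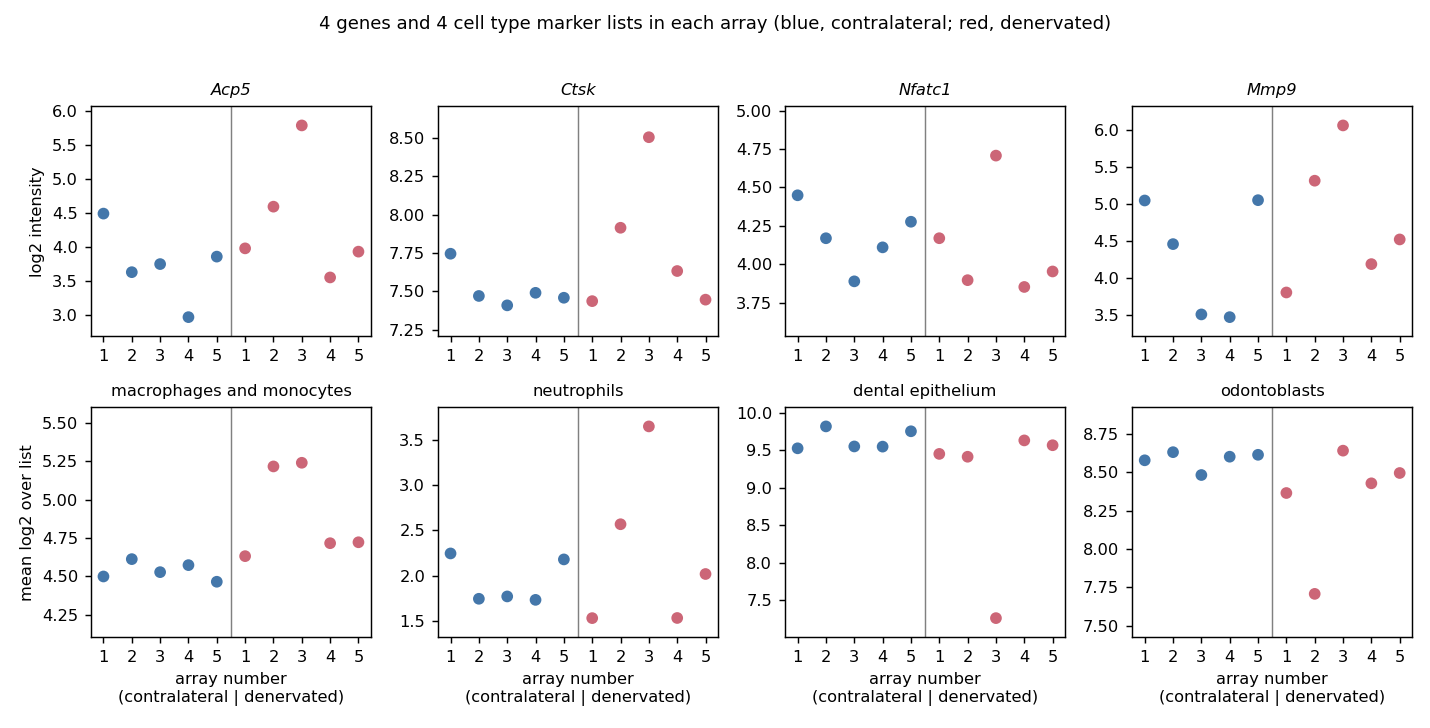
Log2 intensity of Acp5, Ctsk, Nfatc1 and Mmp9 (top) and mean log2 level of 4 marker lists (bottom) in each array, contralateral left and denervated right. Denervated array 3 is the highest point for the 4 genes and for the macrophage and neutrophil lists, and at 7.26 the lowest for dental epithelium.

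Further genes of the osteoclast were read from lists of the pathway; 0 of their 143 measured genes passed in either direction in either fit, with the smallest adjusted p at 0.790 without the block and 0.234 with it. Of 19 measured genes of osteoclast function outside the set, 8 were higher and 11 lower on average, with a median of -0.02. With array medians subtracted 3 were higher and 16 lower, with a median of -0.11. That subtraction moved the median over all genes from 0.02 to -0.08. Its counts for this and the following lists are to be read against that shift. Mmp9, a gelatinase of osteoclasts and neutrophils, had 4.78 ± 0.91 against 4.31 ± 0.79 (SD, n = 5), and its within-pair differences were -1.24, 0.86, 2.56, 0.72 and -0.53. Like Acp5 it was highest in denervated array 3, at 6.06, and without that array its difference fell from 0.47 to 0.15. Itgb3, which encodes the integrin subunit of the resorbing cell's seal, and Calcr, the calcitonin receptor gene, stayed near the low end, at means of 0.83 and 0.64. Tcirg1, the osteoclast-enriched subunit of the proton pump, differed by 0.28 ± 0.12, higher in 4 of 5 pairs, and Clcn7, the chloride transporter gene that acts beside the pump, by 0.01 ± 0.09. Sh3pxd2a, which encodes a scaffold of podosomes, differed by -0.35 ± 0.12, lower in 5 of 5 pairs (-0.23 without denervated array 3), with groups that did not overlap. The integrin gene Itgav differed by -0.21 ± 0.09.

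The signals that form osteoclasts had 19 of 33 measured genes higher and 14 lower, with a median of 0.06; with array medians subtracted 14 were higher and 19 lower. At an unadjusted p under 0.05 by limma there were 3 higher and 1 lower, where 4.1% and 2.11% of all genes lay. The same counts were 4 and 2 of 22 for inhibitors of osteoclast formation, 1 and 3 of 19 for osteoclast function, and 1 and 0 of 21 for inducers of Tnfsf11. They were 1 and 2 of 21 for V-ATPase subunits, 2 and 1 of 14 for the other cathepsins and Acp2, and 0 and 1 of 14 for NFATc1 and TNF relatives. With the replicate number as a block, 6.99% of all genes were higher and 2.93% lower at that threshold. The counts were then 4 and 1 for the signals, 7 and 2 for inhibitors, 1 and 2 for osteoclast function and 4 and 0 for inducers. They were 1 and 2 for V-ATPase subunits, 4 and 1 for the cathepsins and Acp2, and 0 and 3 for the relatives. Relb, a transcription factor gene of the alternative NF-kB pathway downstream of RANK, differed by 0.45 ± 0.13, higher in 5 of 5 pairs, and the AP-1 gene Jund by -0.28 ± 0.10, lower in 5 of 5. Csf1, the growth factor gene that monocyte precursors need, differed by 0.14 ± 0.19, its receptor gene Csf1r by 0.30 ± 0.15 and the RANK adaptor gene Traf6 by 0.06 ± 0.12. Without denervated array 3 Csf1 was at 0.036 and Csf1r at 0.18, and Traf6 was at 0.0068 without contralateral array 4 and 0.17 without denervated array 5. Among inducers of Tnfsf11, 14 of 21 were higher and 7 lower, with a median of 0.05, against 10 and 11 with array medians subtracted. Vdr, the vitamin D receptor gene, differed by 0.45 ± 0.20. The within-pair differences of Vdr were 0.44, 0.55, 0.51, 0.43 and 0.30, and its adjusted p fell from 0.790 to 0.234 with the replicate number as a block. Ptger2, a prostaglandin E receptor gene, differed by 0.51 ± 0.21 (0.30 without contralateral array 5), higher in 5 of 5 pairs, with an adjusted p of 0.366 with the block.

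Inhibitors of osteoclast formation had 13 of 22 genes higher and 9 lower, with a median of 0.05, against 10 and 12 with array medians subtracted. Lgr4, which encodes another receptor for RANKL that restrains the osteoclast, differed by -0.26 ± 0.09, lower in 5 of 5 pairs. Id2, an inhibitor of helix-loop-helix factors, differed by 0.22 ± 0.08, higher in 5 of 5 pairs, and its groups did not overlap. Lgr4 and Id2 were named for the smallest unadjusted p by limma in this list. Irf8, a repressor of Nfatc1 in precursors, differed by 0.33 ± 0.29, and by 0.10 without denervated array 2.

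Relatives of the 10 genes were set beside them. Of 21 measured V-ATPase subunits 6 were higher and 15 lower, with a median of -0.03, against 2 and 19 with array medians subtracted. The ubiquitous relative of Atp6v0d2, Atp6v0d1, had 8.41 ± 0.09 against 8.44 ± 0.05 (SD, n = 5), Atp6v0e2 differed by -0.36 ± 0.14 and Atp6v1d by -0.30 ± 0.12 (-0.18 without denervated array 2). Of the 14 other cathepsins and Acp2, 11 were higher and 3 lower, with a median of 0.16, against 9 and 5 with array medians subtracted. Ctsc, a protease gene of myeloid granules, differed by 0.45 ± 0.12, higher in 5 of 5 pairs with groups that did not overlap, and Ctso by -0.32 ± 0.13. Of 14 relatives of NFATc1 and the TNF family, 9 were higher and 5 lower, against 4 and 10 with array medians subtracted. The NFAT genes differed by 0.04 ± 0.13 for Nfatc2, 0.06 ± 0.08 for Nfatc3 (0.022 without denervated array 5) and 0.26 ± 0.14 for Nfatc4. Tnfsf10, whose protein TRAIL also binds osteoprotegerin, differed by 0.03 ± 0.10, and Tnfrsf12a, a receptor gene of the same family, by -0.35 ± 0.12, lower in 5 of 5 pairs. The directions of Clcn7, Nfatc2, Tnfsf10 and Traf6 turned with quantile normalization or when array medians were subtracted, those of Nfatc3 and Calcr when array medians were subtracted, and that of Itgb3 with quantile normalization.

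**Figure D4:**
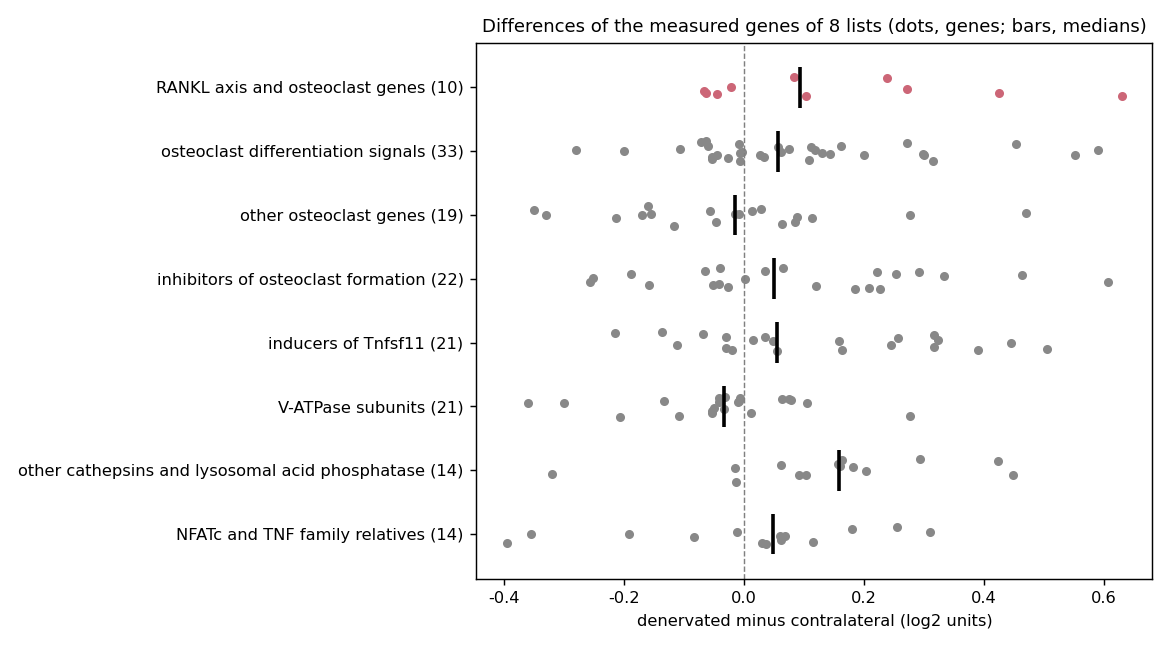
Denervated minus contralateral difference in log2 units of every measured gene of 8 lists (dots; number of genes in brackets; bars are list medians). The medians lie between -0.03 and 0.16, and no gene passed the test.

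Genes with the most similar course over the 10 arrays were sought for Acp5 and Tnfrsf11b, whose SD over the arrays, 0.76 and 0.70, was 0.5 or more. The measure was the root mean square difference of gene-centred log2 values, over genes with a mean of at least 4. Nearest to Acp5 were Angpt1, an angiopoietin gene, at 0.31, Flt4, a receptor gene of lymphatic vessels, at 0.32, and Pmch at 0.36, all 3 highest in denervated array 3. Nearest to Tnfrsf11b were Inmt, a methyltransferase gene, at 0.35, the histone gene H2bc21 at 0.41 and Tyro3, a receptor kinase gene, at 0.41, all 3 highest in denervated array 5. Acp5 and Tnfrsf11b were themselves highest in these arrays, so the shared peaks follow from how the genes were picked.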

How the data were processed

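RNA of 10 incisors was measured on arrays. The authors deposited 1 log2 intensity per probe set and array; RMA, a method of background correction, normalization and probe summary, is listed in the submitters' processing notes, and further steps are not given in the sources used here. The log2 scale was read from the values (-0.16 to 13.2), and low values depend on the variant of RMA used. Of 45101 probe sets 64 controls were left out. Of the rest, 34945 named 1 gene symbol, 932 several and 9160 none in the platform annotation, and the brightest of each gene gave 18193 genes.

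Groups were compared with limma 3.58.1 in R 4.3.3 (lmFit, eBayes), with a call at an adjusted p of 0.05 over all genes. The replicate number as a block was an alternative. The study used both incisors of each of 5 mice. Deviations from the group means of arrays with 1 number correlated at 0.18 to 0.57 (5 pairs), and those of arrays with different numbers at -0.41 to 0.22 (20 pairs), so equal numbers were treated as 1 mouse, which the labels do not state. Precision is limited by the number of arrays.

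The 10 genes and all lists (302 genes, 273 measured, the rest not analysed here) were chosen with earlier results of these data known. Named were the 10 genes, a fixed set of relatives, of which 1 is not reported here, the 2 genes of smallest p in each list where none passed, the nearest profiles, and markers at their highest where a result turns on them. Alternatives were other probe set rules, normalizations, filters on low values and arrays left out, and a block without number 3, the last chosen after seeing the data. Promoter windows came from RefSeq.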

Additional observations from a re-analysis of the deposited data

Results flagged for a closer look

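In each group of 5 arrays, the highest or lowest array was set against its nearest neighbour, and a gap over 0.71 of the group's range (Dixon's 95% limit) marked it as standing apart. Chance marks about 1 in 20 groups, and 7 arrays were marked in 88 groups. That count cannot be read against the chance rate, since several of these genes were named for a small p or for resembling Tnfrsf11b, which was itself highest in denervated array 5. Among the 10 genes this held for Ctsk only, where contralateral array 1 was the highest at 7.75 and the next at 7.49. In denervated array 5, Id2 was the highest at 10.32, Inmt at 7.80 and H2bc21 at 5.93, and Traf6 was the lowest at 3.21. In denervated array 3 Sh3pxd2a was the lowest at 8.15, and in denervated array 2 Atp6v1d was the lowest at 8.64.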

How the results depend on the processing

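The 10 genes had 0 calls in all 19 alternatives, and the 143 other pathway genes as well; the smallest adjusted p of the 10 genes was 0.541. The replicate block changed no call, and 6 of 10 genes were higher on average with it. The number of higher genes was 5 to 7 when 1 array was left out, 3 without denervated arrays 2 and 3, and 3 and 2 where only genes with a mean of at least 2 or 4 were fitted, which leaves 4 and 3 of the 10 genes. Of the 177 alternative differences of the 10 genes 10 changed sign. Without denervated arrays 2 and 3, the difference was -0.0086 for Tnfsf11, -0.14 for Atp6v0d2 and -0.0096 for Ctsk. Without both arrays of number 3, with the replicate block, the difference was -0.095 for Atp6v0d2. With quantile normalization, the difference was 0.0023 for Ocstamp. With array medians subtracted, the difference was -0.015 for Atp6v0d2. With 1 array left out the ranges were -0.21 to 0.0045 for Nfatc1, -0.076 to 0.0025 for Dcstamp and -0.057 to 0.20 for Atp6v0d2. Tnfsf11 minus Tnfrsf11b ranged from -0.46 without denervated array 3 to 0.28 without denervated array 5, and the sign flips within pairs leave it at -0.19. The median difference over all genes was 0.02, and -0.08 with array medians subtracted. Of the 33 other named genes 21 kept their sign in all alternatives. Without denervated arrays 2 and 3, the difference was -0.14 for Mmp9, 0.053 for Itgb3, -0.032 for Clcn7, -0.058 for Irf8, -0.041 for Traf6, -0.0047 for Tnfsf10 and -0.092 for Flt4. Without both arrays of number 3, with the replicate block, the difference was -0.050 for Mmp9, 0.060 for Itgb3, -0.035 for Clcn7 and -0.038 for Tnfsf10. With the mean of probe sets, the difference was 0.052 for Itgb3, -0.013 for Clcn7, -0.073 for Nfatc2, -0.072 for Tnfsf10 and -0.027 for H2bc21. With quantile normalization, the difference was 0.013 for Itgb3, -0.084 for Clcn7, -0.019 for Nfatc2, -0.039 for Traf6 and -0.016 for Tnfsf10. With array medians subtracted, the difference was -0.013 for Calcr, -0.084 for Clcn7, -0.061 for Nfatc2, -0.036 for Nfatc3, -0.037 for Traf6, -0.069 for Tnfsf10 and -0.011 for H2bc21. With 1 array left out the ranges were -0.078 to 0.031 for Itgb3, -0.023 to 0.093 for Clcn7, -0.057 to 0.0015 for Atp6v0d1, -0.035 to 0.11 for Nfatc2, -0.015 to 0.084 for Tnfsf10 and -0.14 to 0.21 for H2bc21. The cause of these changes was not tested, apart from the fewer genes under the filters on low values. Low signal limits the 6 genes with a mean below 2.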

Other observations

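Some marker lists bear on where the 10 genes could be transcribed, and their levels are given as values. The osteocyte list lay between 6.44 and 6.60 in the contralateral and between 5.79 and 6.51 in the denervated arrays, lowest in denervated array 2. Of its 10 genes 7 had a mean of at least 4, among them Phex at 11.46 and Dmp1 at 11.09, which are also on the odontoblast list. The 3 with a mean below 2 were Sost, Mepe and Fgf23, which mark mature osteocytes, at 1.46, 0.89 and 0.58. The dental follicle and periodontal ligament list lay between 6.50 and 6.62 and between 6.54 and 6.93. The endothelial list reached 5.36 and the pericyte and smooth muscle list 6.51, both in denervated array 2, where the Schwann cell list was also highest at 3.73. The lists of red cell precursors and of megakaryocytes and platelets were highest in denervated array 3, at 2.34 and 2.52. In these 2 lists 6 of 7 and 5 of 7 measured genes had a mean below 2, as had 4 of 8 in the Schwann cell list.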
